A study of Mus musculus with 6 samples.

Results

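Ubiquitin conjugating enzymes (E2, symbols beginning with Ube2) and ubiquitin-specific proteases (USP, symbols of Usp and a number) were examined in type 1 conventional dendritic cells (cDC1). The genes were chosen by symbol alone, from the probe sets that the platform annotation ties to exactly 1 gene, with the probe set of highest mean taken for each gene. Ube2l6 and Usp18, the conjugating enzyme and the protease of the ubiquitin-like protein ISG15, were left out by that rule. It gave 71 genes, 28 Ube2 and 43 Usp, of the 12780 genes that could be compared. The arrays held 3 samples of anti-CD40 stimulated and 3 of unstimulated migratory cDC1. All 6 were taken from wild-type C57BL/6 mice, from lymph nodes that drain the skin, and were sorted as XCR1-positive, CD40-positive, MHC II high and CD11c intermediate cells lacking B220, CD326 and Sirpa. The labels call the samples of a group biological replicates without naming separate mice. A p-value here thus reflects the spread of 3 samples a group, and part of that spread may be technical. The sources used here do not give the dose, time or route of the anti-CD40 stimulation or the age of the mice.

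Ubiquitin is attached to proteins by a cascade in which an E1 enzyme activates it, an E2 carries it and an E3 ligase chooses the substrate, while deubiquitinases, of which the USPs are the largest family, take it off again. The kind of chain matters, since chains joined through lysine 48 mark proteins for the proteasome and chains joined through lysine 63 or end to end build signalling platforms. CD40 signals through TRAF adaptors and ligases that use such chains to reach NF-kB, and in dendritic cells ubiquitin also sets the turnover of surface MHC class II and CD86.

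No E2 or USP gene passed the test between anti-CD40 stimulated and unstimulated cDC1. With limma and a Benjamini-Hochberg adjusted p under 0.05 over all 12780 genes, 0 of the 71 were called higher and 0 lower, where 0.0156% of all genes were called higher and 0.0% lower. The smallest limma adjusted p of a member was 0.99997. At an unadjusted p under 0.05 there was 1 member, Ube2e1, or 1.41% of them, against 3.49% of all genes. No member differed by 2-fold or more, which 0.884% of all genes did. A difference of at least 1.5-fold was seen for 3 members (4.23%, against 5.09% of all genes), and these were the E2 genes Ube2w, Ube2q1 and Ube2n.

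The differences, given throughout as log2 intensity in stimulated minus unstimulated samples, lay on both sides of 0. They ran from -0.81 for Ube2w to 0.65 for Ube2q1, with 29 members above 0 and 42 below. Their median was -0.07, against 0.005 over all genes. The 28 Ube2 genes had a median of -0.01 and the 43 Usp genes one of -0.09. For 46 of the 71 members (64.8%) the 95% interval of the difference lay within 2-fold in both directions, which held for 77.9% of all genes. For the other members a 2-fold difference was inside the interval and could not be told from none with 3 samples a group. A missed threshold does not show that the groups were alike. In these sorted samples fewer cells of a kind and less RNA per cell cannot be told apart.

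**Figure D1:**
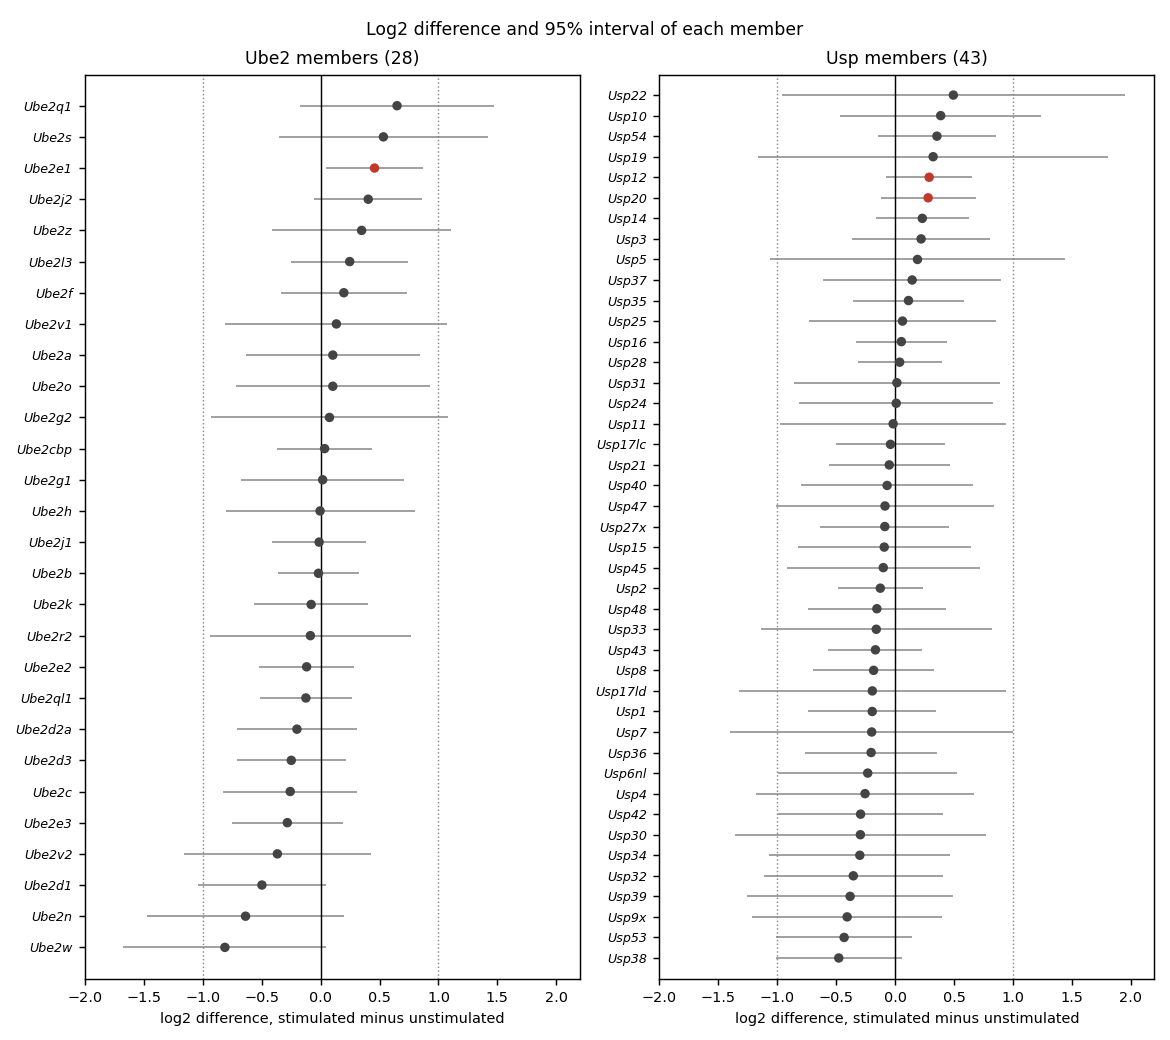
Log2 difference (x axis, stimulated minus unstimulated) with its 95% interval for each of the 28 Ube2 genes (left) and 43 Usp genes (right), sorted by size, with dotted lines at a 2-fold difference. All points lie between -0.81 and 0.65, and the 3 red points are the genes whose groups did not overlap.

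For 3 E2 and USP genes all stimulated values lay above all unstimulated ones. Groups that do not overlap were found for 3 members in this direction (4.23%, against 3.68% of all genes) and for 0 in the other (against 3.46% of all genes), so the members' share upward was near that of all genes. The E2 gene was Ube2e1 (probe set 10417749), which encodes a broad-use E2 related to the Ube2d family. Its log2 intensity was 6.53, 6.60 and 6.68 in stimulated samples, against 6.25, 5.90 and 6.29 in unstimulated samples. The stimulated values lay close together and unstimulated replicate 2 was the lowest of the 6. The difference was 0.46 ± 0.18 (SE, 95% interval 0.05 to 0.87).

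The other pair were proteases. Usp12 (probe set 10535739) encodes a deubiquitinase that needs the WD repeat protein Wdr48 for full activity, and it had log2 intensities of 5.72, 5.51 and 5.49 in stimulated samples, against 5.31, 5.29 and 5.24 in unstimulated samples. The groups were apart with little spread in either, but the difference was small, 0.29 ± 0.16 (SE, 95% interval -0.08 to 0.65). Wdr48 itself differed by 0.01 ± 0.31 (SE). Usp20 (probe set 10471080), known in human cells as a deubiquitinase of the beta-adrenergic receptor, was at 5.74, 5.76 and 6.05 in stimulated samples, against 5.43, 5.67 and 5.62 in unstimulated samples. Here the nearest values of the groups were 5.74 (stimulated) and 5.67 (unstimulated), and the difference was 0.28 ± 0.17 (SE). The groups of Usp20 overlapped after centring on array medians and after quantile normalisation once more, while those of Ube2e1 and Usp12 stayed apart under both. When 1 array was left out, which makes non-overlap easier to reach, the counts moved. Without stimulated replicate 1 they were 4 members higher and 11 lower (8.75% and 8.58% of all genes), and without stimulated replicate 2 they were 8 and 5 (10.3% and 9.81%). Without stimulated replicate 3 they were 5 and 0 (6.45% and 6.40%), without unstimulated replicate 1 5 and 5 (10.7% and 9.08%), without unstimulated replicate 2 3 and 2 (6.28% and 7.20%), and without unstimulated replicate 3 5 and 1 (6.37% and 5.77%).

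The promoters of these 3 genes are shown because they are the members whose groups were apart. Each is the RefSeq window (GRCm38.p6) of 250 bases before to 50 after the start of the gene, 5′ to 3′ on the strand of the gene, with capitals marking the letters GGGCGG (the core of the SP1 box) and CCAAT on either strand. The windows are chr14:18331795-18332094 (minus strand) for Ube2e1, chr5:146794907-146795206 (minus) for Usp12 and chr2:30982029-30982328 (plus) for Usp20.
Ube2e1: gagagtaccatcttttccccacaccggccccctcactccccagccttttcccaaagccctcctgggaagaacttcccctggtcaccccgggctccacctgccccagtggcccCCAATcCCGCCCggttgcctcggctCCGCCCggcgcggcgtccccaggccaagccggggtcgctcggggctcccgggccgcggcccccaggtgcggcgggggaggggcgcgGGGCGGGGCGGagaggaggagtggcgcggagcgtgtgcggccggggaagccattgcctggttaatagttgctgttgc
Usp12: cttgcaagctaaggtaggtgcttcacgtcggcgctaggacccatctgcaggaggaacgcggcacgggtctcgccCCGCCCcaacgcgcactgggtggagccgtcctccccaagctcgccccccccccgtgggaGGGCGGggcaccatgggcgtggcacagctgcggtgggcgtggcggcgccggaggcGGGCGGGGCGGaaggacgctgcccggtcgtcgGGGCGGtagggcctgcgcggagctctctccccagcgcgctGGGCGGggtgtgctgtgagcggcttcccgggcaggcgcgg
Usp20: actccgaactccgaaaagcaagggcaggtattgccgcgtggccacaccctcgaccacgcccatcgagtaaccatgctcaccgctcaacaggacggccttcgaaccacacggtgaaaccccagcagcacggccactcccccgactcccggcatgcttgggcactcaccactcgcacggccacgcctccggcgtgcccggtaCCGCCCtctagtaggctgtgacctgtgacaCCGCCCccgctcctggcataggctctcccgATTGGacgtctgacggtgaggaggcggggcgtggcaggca
All 3 are rich in CG dinucleotides, with 27, 37 and 28 of them in Ube2e1, Usp12 and Usp20, and all hold GGGCGG, 4, 6 and 2 times on the 2 strands together. CCAAT occurs once each in Ube2e1 and Usp20 and not in Usp12, and the ETS letters CCGGAAG, also searched, occur in none of the 3.

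High CG content was common among the members. RefSeq windows were matched for 55 of the 71 genes by symbol (64 windows, since some genes have several starts). The ratio of observed to expected CG was at least 0.6 in 55 of these 64 windows (85.9%), against 63.4% of the 12714 windows of all genes tested and 35.8% of all 32851 windows. GGGCGG was found in 78.1% of the members' windows (58.8% of those of all genes tested), CCGGAAG in 25% (15.9%) and CCAAT in 18.8% (36.3%), each on either strand. The NF-kB consensus was matched in 5 of the 64 windows, or 7.81%, against 10.6% of the windows of all genes tested. Those 5 belong to Ube2c, Ube2d3 (2 windows), Ube2r2 and Usp27x. These are matches of letters in a window and not measured binding.

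Among E2 enzymes of broad use, which include the Ube2d and Ube2e families and makers of lysine 48 chains, 13 genes were measured, 3 above 0 and 10 below, with a median of -0.12. Ube2w, which attaches ubiquitin to the N terminus of proteins, had the lowest difference of all 71. Its log2 intensity was 7.30, 6.67 and 5.80 in stimulated samples, against 7.21, 7.66 and 7.33 in unstimulated samples. Stimulated replicate 1 overlapped with the unstimulated values, and stimulated replicate 3 stood far below the rest. The difference was -0.81 ± 0.37 (SE, 95% interval -1.67 to 0.05), and it was -0.42 without stimulated replicate 3. Ube2q1, an E2 with a long N-terminal extension, had the highest difference, 0.65 ± 0.35 (SE, 95% interval -0.18 to 1.48). It was at 9.35, 8.45 and 9.07 in stimulated samples, against 8.86, 7.70 and 8.37 in unstimulated samples, and the groups overlapped although replicate 2 was the lowest in both. The difference was 0.34 without unstimulated replicate 2.

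The Ube2d genes encode E2 enzymes that work with many RING ligases, and all 3 measured had differences below 0. Ube2d1 was at 7.55, 8.24 and 7.85 in stimulated samples, against 8.10, 8.55 and 8.49 in unstimulated samples. Only stimulated replicate 2 lay within the unstimulated range, and the difference was -0.50 ± 0.23 (SE, 95% interval -1.04 to 0.05). Ube2d3 differed by -0.25 ± 0.20 (SE) and Ube2d2a by -0.20 ± 0.22 (SE). Of the Ube2e genes beside Ube2e1, Ube2e3 differed by -0.28 and Ube2e2 by -0.12. Ube2k, which builds lysine 48 chains, differed by -0.08 ± 0.21 (SE), and Ube2h, the partner of the CTLH ligase, by -0.005 ± 0.34 (SE).

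Lysine 63 chains are made by Ube2n together with one of the inactive E2 variants Ube2v1 and Ube2v2, and in TRAF6 signalling the pair is Ube2n with Ube2v1. Ube2n (probe set 10365918) was at 6.89, 6.92 and 6.01 in stimulated samples, against 7.20, 6.72 and 7.81 in unstimulated samples. The lowest value was stimulated replicate 3 and the highest unstimulated replicate 3, and the groups overlapped. The difference was -0.64 ± 0.35 (SE, 95% interval -1.47 to 0.20), -0.34 without stimulated replicate 3 and -0.35 without unstimulated replicate 3. A second Ube2n probe set gave -0.70 ± 0.39 (SE). Ube2v2, at 8.03, 8.18 and 6.97 in stimulated samples against 7.89, 7.995 and 8.40 in unstimulated samples, differed by -0.37 ± 0.34 (SE) and by 0.01 without stimulated replicate 3. Ube2v1 differed by 0.13 ± 0.40 (SE), with a limit on its probe sets that is given below.

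Ube2l3 serves HECT and RBR ligases, among them the Rnf31 complex that makes end-to-end chains in NF-kB signalling. The probe set with the highest mean gave 11.57, 11.99 and 11.82 in stimulated samples, against 11.22, 11.68 and 11.74 in unstimulated samples, a difference of 0.25 ± 0.21 (SE). Another of its 3 probe sets (10438109) had 9.99, 9.37 and 10.07 in stimulated samples, against 9.27, 9.36 and 9.02 in unstimulated samples. On that probe set the groups did not overlap, with nearest values of 9.37 (stimulated) and 9.36 (unstimulated), and the difference was 0.60 ± 0.23 (SE, 95% interval 0.05 to 1.14), with a limma adjusted p of 0.99998 over all probe sets. The subunits of that ligase, Rnf31, Rbck1 and Sharpin, differed by 0.37 ± 0.29, 0.40 ± 0.50 and 0.38 ± 0.32 (SE).

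**Figure D2:**
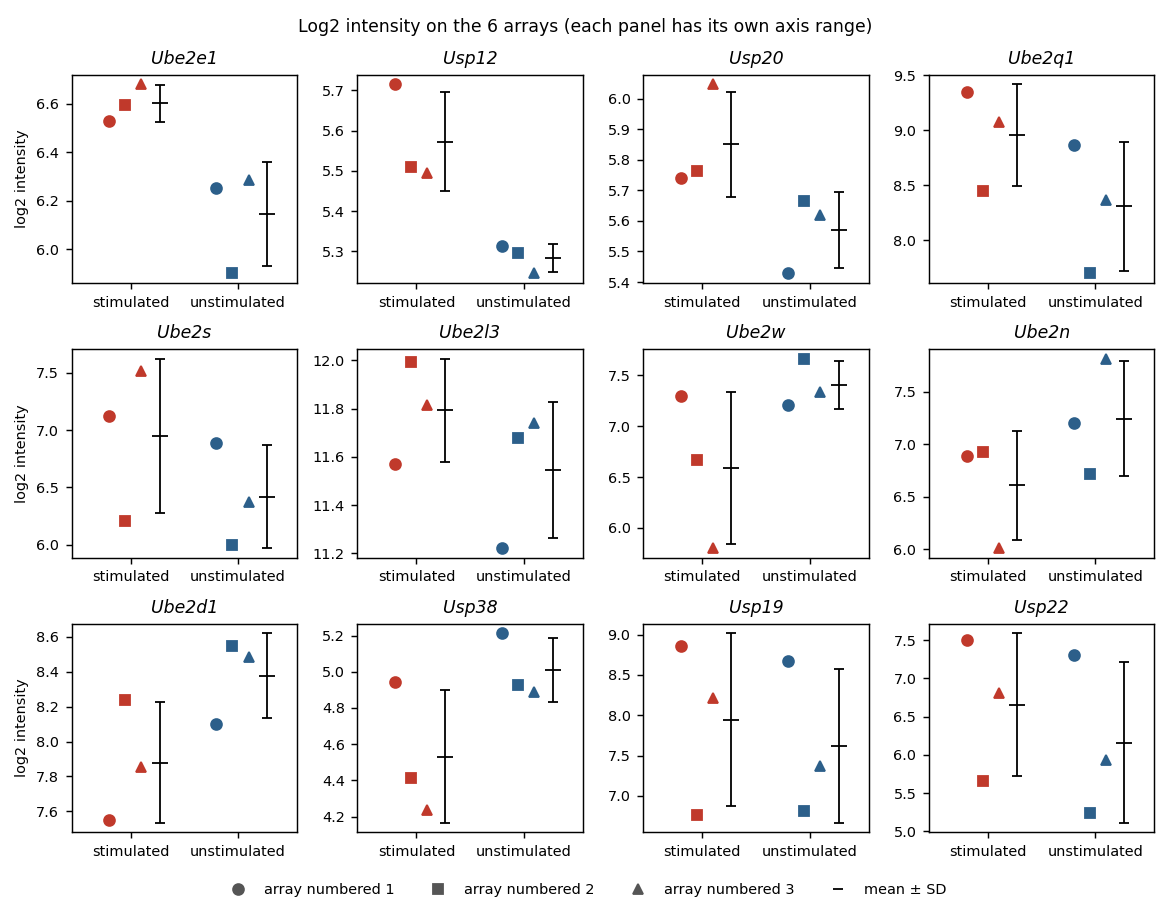
Log2 intensity (y axis) on each array for 12 genes, stimulated samples left in red and unstimulated samples right in blue, with the array number as the marker shape and mean ± SD beside the points (n = 3 each). Ube2e1, Usp12 and Usp20 have groups that do not overlap, whereas Usp19 and Usp22 have the array numbered 1 high and the array numbered 2 low in both groups.

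Ube2c and Ube2s act in mitosis, when Ube2c starts and Ube2s lengthens the chains that the anaphase-promoting complex puts on its substrates. Ube2s differed by 0.53 ± 0.38 (SE), with 7.13, 6.21 and 7.52 in stimulated samples against 6.89, 6.00 and 6.37 in unstimulated samples. Ube2c differed by -0.26 ± 0.24 (SE) at 3.76, 4.46 and 4.35 in stimulated samples, against 4.20, 4.69 and 4.45 in unstimulated samples. The groups overlapped for both. Ube2c is 1 of 5 members with an intensity under 20 on at least 1 array, beside Usp1, Usp37, Usp38 and Usp45. No probe set in the table has both group geometric means under 20. For Ube2c the stimulated mean was under 20 (4.19 in log2) and the unstimulated mean above it (4.45). It thus met that limit only through the unstimulated group, and the sign of its difference cannot be set against that of Ube2s. Of 12 proliferation genes listed, 6 were measured and 0 passed, with 5 above 0. Their summed intensity was 395 to 627 in stimulated samples, against 213 to 268 in unstimulated samples, with Mki67 at a difference of 2.26. Without Mki67 the other 5 summed to 208 to 231 in stimulated samples, against 168 to 206 in unstimulated samples, with Cdk1 at 0.66, Aurkb at 0.39 and Ccnb2, Cdc20 and Aurka at 0.10, 0.15 and -0.05. The part of such cells in the values of Ube2c and Ube2s was not tested.

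Among E2 enzymes of the endoplasmic reticulum and of ubiquitin-like proteins none passed the test. Of the 4 E2 genes of degradation at the endoplasmic reticulum, Ube2j2 differed by 0.40 ± 0.20 (SE, 95% interval -0.06 to 0.86), with 6.50, 6.03 and 6.55 in stimulated samples against 5.96, 5.84 and 6.06 in unstimulated samples. Only stimulated replicate 2 fell among the unstimulated values. Ube2g2 differed by 0.07 ± 0.43, Ube2g1 by 0.02 ± 0.30 and Ube2j1 by -0.01 ± 0.17 (SE). Ube2z, the E2 charged by the E1 enzyme Uba6, differed by 0.35 ± 0.32 (SE), and Ube2f, an E2 of the ubiquitin-like protein NEDD8, by 0.20 ± 0.23 (SE). The E2 genes Ube2m and Ube2t were not analysed here.

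Ube2b had the narrowest range of all members. Together with Ube2a it encodes the RAD6 enzymes that ubiquitinate histone H2B and PCNA. Its 6 values lay between 9.49 and 9.57, a range of 0.08, and the difference was -0.02 ± 0.15 (SE). For Ube2a, whose range was wider, it was 0.10 ± 0.31 (SE). Ube2o, a large enzyme with both E2 and E3 activity, differed by 0.10 ± 0.35 (SE), and Ube2cbp, which is named for binding UBE2C and is no E2, by 0.03 ± 0.17 (SE).

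USPs known from NF-kB and innate immune signalling were measured for 12 genes, 3 above 0 and 9 below, with a median of -0.07 and 0 called. The lowest was Usp38, shown in human cells to edit chains on the kinase TBK1. It was at 4.94, 4.41 and 4.24 in stimulated samples, against 5.21, 4.93 and 4.89 in unstimulated samples. Stimulated replicate 1 overlapped with the unstimulated values by a small margin, and the difference was -0.48 ± 0.23 (SE, 95% interval -1.01 to 0.05). Usp7, which stabilises the p53 regulator MDM2, differed by -0.20 ± 0.51 (SE). Its 3 stimulated values were 7.84, 5.87 and 6.83, against unstimulated values of 7.55, 7.17 and 6.41. The related proteases Usp4, Usp11 and Usp15 differed by -0.26 ± 0.40, -0.02 ± 0.41 and -0.09 ± 0.31 (SE), Usp21 by -0.05 ± 0.22 (SE) and Usp25, which acts on TRAF adaptors, by 0.06 ± 0.34 (SE). Usp17lc and Usp17ld belong to a family of near-identical copies and their signals may be shared, so their values (-0.04 and -0.19) are uncertain.

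Usp14, which trims chains at the proteasome, and Usp5, which takes apart free chains, differed by 0.23 ± 0.17 and 0.19 ± 0.53 (SE). Usp14 was at 5.86, 5.96 and 5.71 in stimulated samples, against 5.50, 5.56 and 5.78 in unstimulated samples. Unstimulated replicate 3 overlapped with the stimulated values. Among 6 histone and transcription USPs, Usp22, the protease of the SAGA coactivator, had the highest difference of the Usp genes, 0.49, but an interval of -0.96 to 1.95. Its values were 7.50, 5.65 and 6.81 in stimulated samples, against 7.30, 5.24 and 5.94 in unstimulated samples, so arrays within a group differed by more than the groups did. Leaving out unstimulated replicate 1 gave 1.07, and leaving out unstimulated replicate 2 gave 0.03. Usp42 was the lowest of these 6, at -0.29 ± 0.30 (SE).

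USPs of DNA repair and the cell cycle, 8 in number, had 4 genes above and 4 below 0. Usp12 was the highest, and the lowest was Usp1, which removes ubiquitin from PCNA and FANCD2, at -0.19 ± 0.23 (SE). Of 9 USPs of endosomes, membranes and the cytoskeleton, 3 were above and 6 below 0, with a median of -0.18. Usp53, linked to cell junctions, was the lowest at -0.43 ± 0.25 (SE), with 7.10, 6.52 and 6.20 in stimulated samples against 7.14, 6.996 and 6.99 in unstimulated samples. Stimulated replicate 1 lay between the unstimulated values. Usp9x, a large protease of many substrates, differed by -0.41 ± 0.34 (SE), and by -0.10 without stimulated replicate 3. Usp8, which sorts receptors at endosomes, differed by -0.18 ± 0.22 (SE). Usp10, which binds the stress granule protein G3BP1, was the highest of this group at 0.39 ± 0.36 (SE), and Usp30, of the outer mitochondrial membrane, differed by -0.29 ± 0.45 (SE).

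Of the remaining genes, Usp39, a splicing factor with no protease activity, differed by -0.38 ± 0.37 (SE), and Usp35 by 0.11 ± 0.20 (SE). Usp6nl, which the symbol rule also takes in, encodes a GTPase-activating protein for Rab5 and is no protease, and it differed by -0.23 ± 0.32 (SE). Ube2 and Usp genes not named by the rule for named genes numbered 27. Their differences ran from -0.36 to 0.35, 9 above 0 and 18 below, with standard errors of 0.15 to 0.63.

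For many Usp genes the arrays of a group differed by more than the groups. Of the 43 Usp genes, 29 (67.4%) were higher on array 1 than on array 2 in both groups, against 10 of 28 Ube2 genes (35.7%) and 40.1% of all genes. The median of array 1 minus array 2 over the Usp genes was 0.53 in stimulated and 0.38 in unstimulated samples, against 0.009 and 0.05 over all genes. Usp19, which has a form anchored in the endoplasmic reticulum, had the widest gap in stimulated samples, 2.09, and one of 1.86 in unstimulated samples, while its difference between the groups was 0.32 ± 0.63 (SE). For Usp22 the gaps were 1.85 and 2.06, and for Usp5 1.59 and 1.21, in stimulated and unstimulated samples. Usp17ld ran the other way, at -1.39 and -1.40. Such gaps were not confined to Usp genes. Traf6 was at 9.02 and 7.01 on stimulated arrays 1 and 2, and at 8.73 and 7.17 on unstimulated arrays 1 and 2. The ligase gene Peli1 was lower on array 1, at 7.06 and 7.35 in stimulated and 7.54 and 7.62 in unstimulated samples. The share of such genes was not counted in the other ubiquitin lists. The interquartile range of log2 intensities moved with the array number, at 2.31, 1.75 and 2.03 on stimulated arrays 1, 2 and 3 and 2.19, 1.74 and 1.92 on unstimulated arrays 1, 2 and 3. Its part in these gaps was not tested. Stimulated replicate 3 was the lowest of the 6 arrays for 22 of the 71 members (31.0%), against 13.1% of all genes, and Ube2w, Ube2n, Ube2v2, Usp9x, Usp38 and Usp53 were among the 22.

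**Figure D3:**
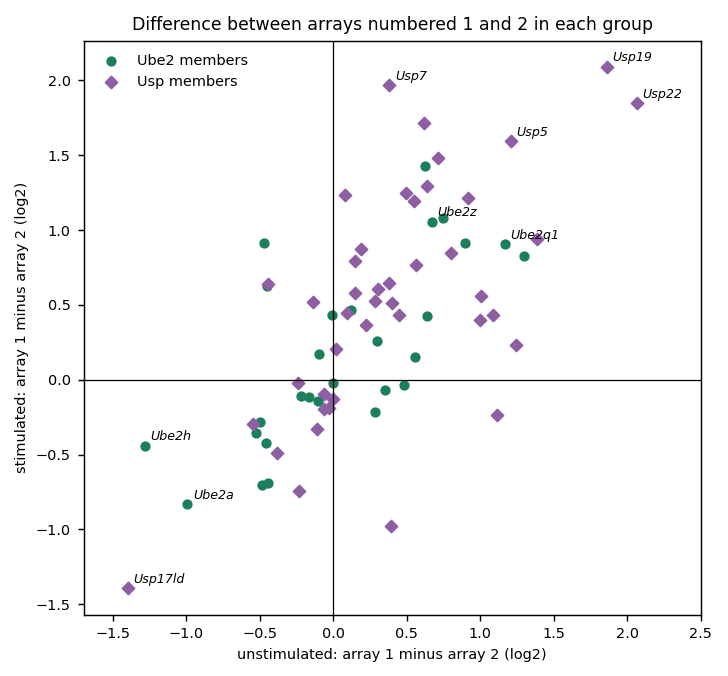
Log2 intensity of array 1 minus array 2 in unstimulated (x axis) and stimulated samples (y axis) for each member, Ube2 genes as green circles and Usp genes as purple diamonds. In the upper right, where array 1 was higher in both groups, there are 29 of 43 Usp genes and 10 of 28 Ube2 genes.

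Several E2 genes are read by more than 1 probe set. This held for 10 members, 8 of them Ube2 genes, with 23 probe sets in all, of which 0 passed. For 9 of the 10 the probe sets had differences of the same sign, and for Ube2h they had opposite signs near 0 (-0.005 and 0.08). Probe set identifiers on this array run along the chromosomes. Of genes with 1 probe set, 99.6% lay, by identifier, among genes of their own chromosome (the most frequent chromosome of the 20 nearest named probe sets, GRCm38.p6), as did all 61 members with 1 probe set. For 7 of the 10 members with several, the probe set of highest mean lay among genes of another chromosome. These were Ube2d2a, Ube2d3, Ube2h, Ube2l3, Ube2s, Ube2v1 and Ube2v2, and over all genes it was 194 of 677.

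The gap was plain for Ube2d3, a gene of chromosome 3. The probe set used (10605349), whose neighbours are genes of chromosome X, averaged 12.26 ± 0.30 in stimulated and 12.51 ± 0.08 in unstimulated samples (SD, n = 3 each). The one among genes of chromosome 3 (10496295) averaged 9.96 ± 0.31 in stimulated and 10.34 ± 0.16 in unstimulated samples (SD, n = 3 each), with a difference of -0.38 ± 0.21 (SE). The remaining probe set (10469772) lay among genes of chromosome 2. On it all stimulated values lay below all unstimulated ones, with a difference of -0.26 ± 0.20 (SE). The nearest values of the groups were 11.71 (stimulated) and 11.73 (unstimulated). Ube2v2, a gene of chromosome 16, gave -0.37 ± 0.34 on the probe set used and -0.37 ± 0.34 on the one among genes of its chromosome (SE). Ube2s gave 0.53 ± 0.38 and 0.61 ± 0.34 in the same order (SE). Which copies of a sequence these probe sets read was not tested. The levels of these 7 genes are therefore uncertain, while their differences kept their sign on the other probe sets except for Ube2h. For Ube2v1, a gene of chromosome 2, both probe sets lay among genes of other chromosomes (1 and 3). Its difference therefore has no value from a probe set among genes of its own chromosome.

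**Figure D4:**
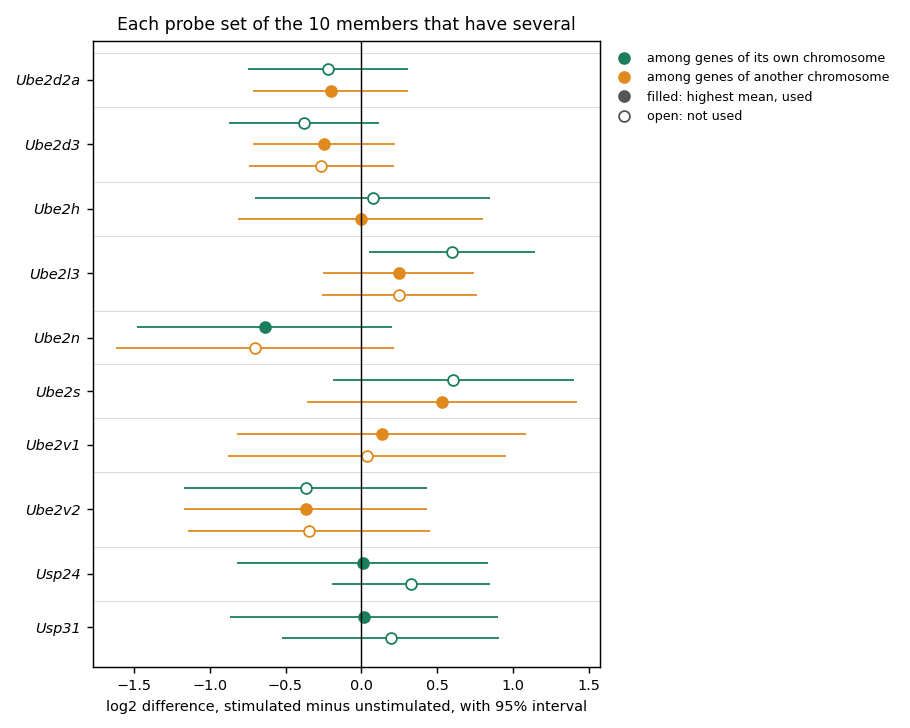
Log2 difference (x axis, stimulated minus unstimulated) with 95% interval for each of the 23 probe sets of the 10 members with several, green where the probe set lies among genes of its own chromosome and orange where it does not, filled for the probe set used. Only Ube2l3 has a probe set whose interval leaves out 0, and it is an open green one.

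Other genes of the ubiquitin system gave the same count of calls. Of 102 such genes in 8 lists, 0 passed (limma, smallest adjusted p 0.99997), 3 (2.94%) had an unadjusted p under 0.05, and the groups did not overlap for 4 higher (3.92%) and 6 lower (5.88%). Over all genes these shares were 3.49%, 3.68% and 3.46%. Their differences ran from -0.77 to 0.81 with a median of 0.04. The lists measured were E1 enzymes (7 genes, median 0.05), E2 enzymes with other names (7, 0.17), ubiquitin-like modifiers (7, 0.08), other deubiquitinases (30, 0.06), SUMO and NEDD8 proteases (7, -0.07), partners of USPs (12, 0.09), ligases and adaptors linked to CD40 and NF-kB (24, -0.03) and membrane ligases of the MARCH family (8, 0.07). Marchf1, also listed, was not among the MARCH genes measured. The 3 genes with an unadjusted p under 0.05 were Traf4, a TRAF family member, at 0.59 ± 0.17 (SE), the deubiquitinase gene Josd2 at 0.64 ± 0.25 (SE) and Otud1, another deubiquitinase gene, at -0.77 ± 0.29 (SE). They were singled out after their values were seen. Tnfaip3, which encodes the NF-kB inhibitor A20, differed by 0.69 ± 0.54 (SE), and Cyld, a protease of lysine 63 and end-to-end chains, by -0.44 ± 0.45 (SE). Traf2 and Traf6, which dock on CD40 signalling complexes, differed by -0.12 ± 0.60 and -0.04 ± 0.57 (SE). Uba6, the E1 that charges Ube2z, differed by -0.26 ± 0.41 (SE).

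The labelled cell type was checked on its markers. Of 11 cDC1 genes 10 were measured, with summed intensities of 6617 to 10731 in stimulated samples against 5705 to 9433 in unstimulated samples. Irf8, Id2, Flt3 and Batf3, with group means of 9.35 to 11.64 in log2 intensity, weigh most in these sums. Xcr1, the gene of the sort marker, averaged 4.67 in stimulated and 4.44 in unstimulated samples, near the monocyte gene Csf1r (4.64 and 4.76). Itgae (4.92 and 4.76) and Wdfy4 (4.90 and 4.91) were also low, while Clec9a (6.41 and 6.67), Zbtb46 (7.19 and 7.01) and Cadm1 (7.79 and 7.43) lay between. The sums were 117 to 224 against 94.3 to 169 for 4 T cell genes, 65.1 to 93.8 against 67.9 to 99.2 for 2 B cell genes, and 20.9 to 29.0 against 23.3 to 29.5 for the 1 monocyte and macrophage gene measured, Csf1r, in stimulated and unstimulated samples, and these 3 lists overlapped between the groups. The sums of 5 migratory dendritic cell genes were 10653 to 20538 in stimulated samples against 8868 to 16948 in unstimulated samples, those of 2 cDC2 genes 66.2 to 112 against 58.6 to 72.3, and those of 2 Langerhans cell genes 67.3 to 81.7 against 55.03 to 68.7. Among single markers, the groups did not overlap for Epcam, which encodes the CD326 that the sort excludes, with 5.36, 5.51 and 5.06 in stimulated samples against 4.71, 4.60 and 4.90 in unstimulated samples (difference 0.57 ± 0.19, SE). Cd207, the other Langerhans cell gene, averaged 5.02 in stimulated and 5.08 in unstimulated samples (difference -0.07 ± 0.19, SE), and its groups overlapped. The groups were also apart, in the same direction as for Epcam, for Sirpa, likewise excluded by the sort (0.15 ± 0.15, SE). So they were for Cd3e of T cells (0.20 ± 0.16, SE), Cd40 (1.01 ± 0.32, SE), Cadm1 and Socs2, and none of these markers passed the test. Their part in the members' values was not tested. Across genes, which are not independent, Pearson's r between 2 arrays of a group was 0.915 to 0.958, and the median intensity per array was 51.9 to 56.3.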

How the data were processed

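Total RNA of 6 samples was amplified from a small input and hybridised, 1 array each, to 1-colour Affymetrix arrays, per the labels' protocols. The submitters' processing notes name Affymetrix Expression Console and RMA, with no version or setting. The deposited table holds the authors' intensity values for 17551 probe sets on a linear scale (6.97 to 13701), so log2 of each intensity was taken here. No probe set had both of its group geometric means under 20, although 2215 fell under 20 on some array.

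Probe sets with exactly 1 symbol (13963, of 12780 genes) were named through the platform annotation. For the 677 genes with several, the highest mean probe set was kept. No symbol differed in RefSeq. Groups were tested by lmFit and eBayes of limma 3.58.1 (R 4.3.3) without covariates, with Benjamini-Hochberg adjustment over all 12780 genes. Tests were two-sided. The number of arrays limits the precision. On simulated data the procedure recovered 27 of 100 genes changed by 1 log2 unit and 80 of 100 changed by 2, with 2 false calls. The simulated noise was independent between arrays, without the spread that same-numbered arrays share.

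Members and lists were chosen with earlier results of these data known. The named genes are members that passed, members whose groups did not overlap, the highest and lowest of each role group, and a fixed list of E2 and USP genes. Genes beside these were named after their values were seen. Alternatives were a filter on dim genes, a robust variance fit, second normalisations, array weights, covariates, leaving out arrays and other probe set rules. The promoter motifs and the rule on a probe set's place among genes of its own chromosome were added after the data were seen. Python 3.11.15 and matplotlib 3.10.9 were used for summaries and figures.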

Additional observations from a re-analysis of the deposited data

How the results depend on the processing

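At an adjusted p under 0.05, 0 members and 0 pathway genes were called in each of 16 alternatives, and 0 in the reported fit at an adjusted p under 0.1. The smallest limma adjusted p of a member over the alternatives was 0.0954, for Ube2n with array weights. The members' median of -0.07 lay between -0.13 (without stimulated replicate 1) and 0.008 (without unstimulated replicate 1) over the alternatives, so its sign was not stable. Members whose groups did not overlap in the lower direction numbered 0 as reported (3.46% of all genes). They numbered 2 after quantile normalisation once more (4.37% of all genes) and 2 after centring on array medians (3.90%). After centring the higher count was 2, without Usp20, against 3.06% of all genes. Leaving out 1 array gave 3 to 8 such members higher and 0 to 11 lower, with fewer samples to separate. The shares of all genes for each array left out are given above. Array weights put 6.14 on unstimulated replicate 3 and 0.475 to 2.196 on the others. They gave Ube2n -1.39, Ube2w -1.18 and Ube2v2 -1.01, the only members past 2-fold there. With these weights 22 members (31.0%, against 19.5% of all genes) had an unadjusted p under 0.05. Across alternatives 31 of the 71 members kept their sign. With the replicate number as a block, 38 genes were called over all genes and 0 members, 10 members (14.1%, against 10.4% of all genes) had an unadjusted p under 0.05 and the smallest adjusted p of a member was 0.182 (Ube2q1). Same-numbered arrays deviated together with correlations of 0.73, 0.59 and 0.06 for arrays 1, 2 and 3. Across numbers the correlation was -0.69 for stimulated array 2 with unstimulated array 1, and -0.60 for stimulated array 1 with unstimulated array 2. The labels do not say whether the numbers mark pairs, so the reported fit has no block. Its standard errors therefore include any spread that same-numbered arrays share. With the probe set among genes of its own chromosome where a gene had such a probe set, a rule chosen after the data were seen, Ube2l3 was at 0.60. Under that rule the groups did not overlap for 4 members higher and 0 lower, against 3.67% and 3.47% of all genes.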
